A study of Mus musculus with 6 samples.

Results

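The collagen genes of mouse prostate stromal cells were compared between cells with a lentiviral vector and cells with the same vector carrying S37A β-catenin. Every gene symbol made of Col, a type number, the letter a and a chain number was taken, which gave 44 of the 24346 symbols in the files. They fell into 5 classes by type: 11 fibrillar genes, 8 basement membrane genes (types 4, 15 and 18), 6 type 6 genes, 9 FACIT genes (fibril-associated collagens with interrupted triple helices) and 10 others.

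Collagens are extracellular proteins built of 3 chains wound into a triple helix, in which glycine recurs along each chain with 2 other amino acids between one and the next. Fibrillar chains form the rope-like fibrils of connective tissue, type 4 chains form the sheet of the basement membrane, type 6 forms beaded microfilaments around cells, and FACIT chains sit on the surface of fibrils. In the stroma of a gland, fibroblasts and smooth muscle cells are the main makers of fibrillar collagen.

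There were 3 vector libraries and 3 S37A libraries of primary stromal cells from prostates of C57BL/6 mice aged 8 to 12 weeks. Both groups carry the lentiviral vector, FU-CGW, which is all the labels name for one group and which held the S37A β-catenin cDNA in the other; S37A lacks a serine whose phosphorylation marks β-catenin for breakdown, and β-catenin carries the canonical Wnt signal. All cells were grown on plates coated with collagen I in a medium with 1e-10 M dihydrotestosterone, and were enriched by a short replating in which cells that did not attach were removed. The labels give neither the share of infected cells, nor the promoter of the cDNA, nor the number of cultures or animals behind each group, so p-values measure the spread between these libraries, which may be technical.

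Levels are FPKM, fragments per kilobase of transcript relative to all mapped fragments of the library, summed over the transcript models of a gene. Interval widths in the files corresponded to 40.2 to 50.4 M fragments per library. Ctnnb1, the β-catenin gene, measured 110.4 ± 9.79 FPKM (SD, n = 3) in vector and 141 ± 7.73 (n = 3) in S37A, without telling the introduced copy from the cell's own, and the Wnt target Axin2 measured 0.131 ± 0.0385 and 2.95 ± 0.296. The summed FPKM of 10 general stromal markers was 4561 to 4764 in vector and 4804 to 4868 in S37A, and that of 11 prostate epithelial markers was 27.5 to 38.6 and 23.8 to 37.7, with Pbsn under 0.05 FPKM in every library. The stromal marker Lum was below the level tested.

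The triple helix is visible in the genes themselves. Many exons of fibrillar collagen genes are 54 bases long, a length that can encode 6 repeats of glycine and 2 further amino acids. Counted by length alone, the fibrillar genes each have 21 to 33 exons of 54 bases (GENCODE M21 on mm10). The basement membrane genes have 1 to 3 and the type 6 genes 2 or 3. The longest unbroken run of glycine codons (GGN and then 2 other codons, repeated) was 216 to 344 repeats in the fibrillar genes, and in the basement membrane class it was 30 to 66. FACIT genes had 4 to 28 exons of 54 bases and runs of 32 to 113 repeats, and the other genes 0 to 6 and runs of 23 to 75. The first 54-base exon that encodes 6 such repeats is shown for both type 1 genes and for the 4 genes that passed the test below. Sequences run 5′ to 3′ on the gene's strand, with the first codon of each repeat, a glycine codon, in capitals. The Col1a1 exon, number 8 of its transcript, is at chr11:94939904-94939957 (+), the Col1a2 exon, number 8, at chr6:4515481-4515534 (+), and the Col5a1 exon, number 15, at chr2:27965251-27965304 (+). The Col4a2 exon, number 17, is at chr8:11413979-11414032 (+), the Col6a3 exon, number 13, at chr1:90795915-90795968 (−), and the Col12a1 exon, number 55, at chr9:79614349-79614402 (−).
Col1a1: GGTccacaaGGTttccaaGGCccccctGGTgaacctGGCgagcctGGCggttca
Col1a2: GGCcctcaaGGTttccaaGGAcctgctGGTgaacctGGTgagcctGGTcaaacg
Col5a1: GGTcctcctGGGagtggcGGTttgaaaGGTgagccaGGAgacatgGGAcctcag
Col4a2: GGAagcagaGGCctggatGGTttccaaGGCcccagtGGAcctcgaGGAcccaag
Col6a3: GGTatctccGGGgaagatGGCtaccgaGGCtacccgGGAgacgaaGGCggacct
Col12a1: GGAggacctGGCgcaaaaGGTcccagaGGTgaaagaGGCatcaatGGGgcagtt

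Collagen genes ranged from among the most abundant transcripts of these cells to nearly none. Mean levels over the 6 libraries were at least 100 FPKM for 8 genes, between 10 and 100 for 9, and between 0.5 and 10 for 11; the remaining 16 lay under 0.5 FPKM and were not tested. Col1a1, the major chain of type 1 collagen, was the most abundant, with 1444 to 2063 FPKM, and ranked between 14 and 20 among all genes of a library. Col5a2 (940.1 to 1007 FPKM), Col1a2 (644 to 968 FPKM), Col4a1 (786 to 837 FPKM) and Col4a2 (482 to 531 FPKM) followed. Col5a2 was above Col1a2 in every library, whereas Col1a2 and Col4a1 changed places, with Col4a1 the higher in vector replicates 2 and 3. These 5 genes held 83.8% to 84.9% of all collagen FPKM in each library. Cartilage collagen Col2a1, the FACIT chains Col9a1 and Col9a2 and the later type 6 chains Col6a5 and Col6a6 were all at 0.0415 FPKM or less in every library.

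**Figure D1:**
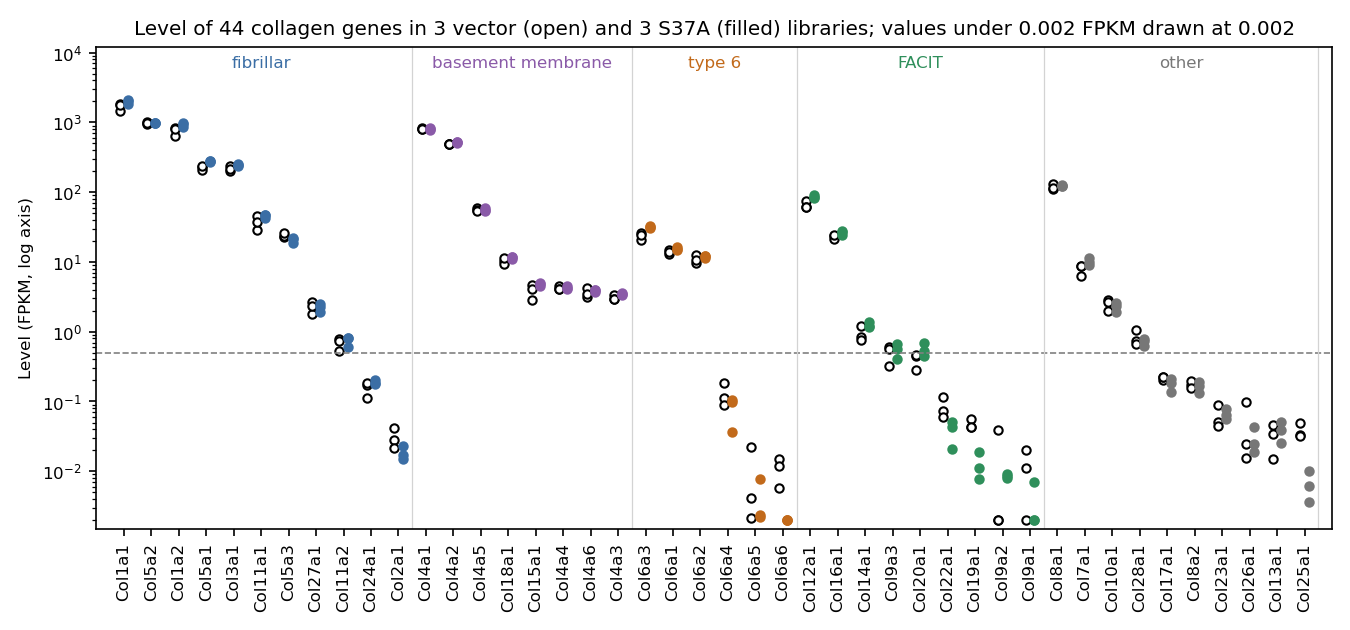
FPKM on a log axis of the 44 collagen genes in the 3 vector libraries (open circles) and the 3 S37A libraries (filled circles), by class and falling mean level, with the tested minimum of 0.5 FPKM as a dashed line. Col1a1, Col5a2, Col1a2, Col4a1 and Col4a2 lead, and 16 genes have a mean below the line.

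Of the 28 collagen genes tested, 4 rose in S37A cells: Col5a1, Col4a2, Col6a3 and Col12a1, 1 each in the fibrillar, basement membrane, type 6 and FACIT classes. That is 14.3% of them, where 6.06% of all 12022 genes tested were called higher (limma on log2(FPKM + 1), Benjamini-Hochberg adjusted p under 0.05 over all genes). No collagen was called lower, where 19.9% of all genes were; at an unadjusted p under 0.05, 10 collagens were higher and 1, Col5a3, lower, against 1239 and 3898 of all genes. The difference, S37A minus vector on the log2 scale, was above 0 for 22 of the 28 genes (78.6%), and above 0 for 30.5% of all genes. The collagens' median difference was 0.12, with a range from -0.21 to 0.41, and the median of all genes was -0.07. In 7 collagens every S37A library was above every vector library, and in 1, Col5a3, every one was below; over all genes these shares were 11.3% and 36.5%. In whole cultures, fewer cells of a type and less RNA per cell cannot be told apart.

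The counts depended on scaling and on single libraries. Median-ratio scaling, which sets the typical gene to no difference, called 7 collagens higher and 0 lower, the added genes being Col1a2, Col3a1 and Col16a1; under it, 10.5% of all genes were called higher and 7.86% lower. It put 25 of the 28 collagens above 0, where 49.3% of all genes were. Without vector replicate 1, 9 collagens were called higher, and without vector replicate 3 or S37A replicate 3, 2 were, Col5a1 and Col6a3. Without vector replicate 2, 3 were called higher (Col5a1, Col6a2 and Col6a3), and 18 of the 28 remained above 0. Markers of several cell types moved with the groups, where 6.06% of all genes were called higher and 19.9% lower. Summed levels cover every listed marker of a type, tested or not. Of 10 smooth muscle markers 8 rose, with a summed level of 7063 to 7497 FPKM in vector and 8334 to 8703 in S37A. Of the 10 macrophage markers tested 8 rose (23.7 to 30.0 and 60.7 to 68.9 FPKM), and so did 2 of the 4 pericyte markers tested (70.4 to 73.9 and 86.6 to 92.3 FPKM). Those 2 were Mcam (means of 46.4 and 60.7 FPKM) and Cspg4 (21.8 and 25.6 FPKM), which make up most of the pericyte sum. The other 2, Abcc9 (-0.03) and Notch3 (-0.02), were not called. None of these marker genes was at 0 throughout, and their part in the collagen differences was not tested. Of 9 endothelial markers tested 0 were called, with 1 lower at an unadjusted p under 0.05 (110.3 to 126 and 107 to 111 FPKM). Of 9 stromal markers tested 1 rose and 2 fell, and of 8 stress-response genes 2 fell (373 to 414 and 347 to 365 FPKM). Both shares of lower calls are near the 19.9% of all genes. Of 8 epithelial markers tested 0 were called by limma (1 higher at an unadjusted p under 0.05), of 3 glial ones 0 (0 unadjusted) and of 2 chondro-osteogenic ones 0 (1 higher unadjusted, with Acan, Sp7 and Ibsp under 0.05 FPKM throughout). Of 2 skeletal muscle markers tested 1 rose, with Ckm, Myh3, Myl1, Myog and Myod1 under 0.05 FPKM throughout, and the 1 other blood marker tested fell, with Cd3e, Cd3g, Ms4a1, Hbb-bs and Hba-a1 under 0.05 FPKM throughout.

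**Figure D2:**
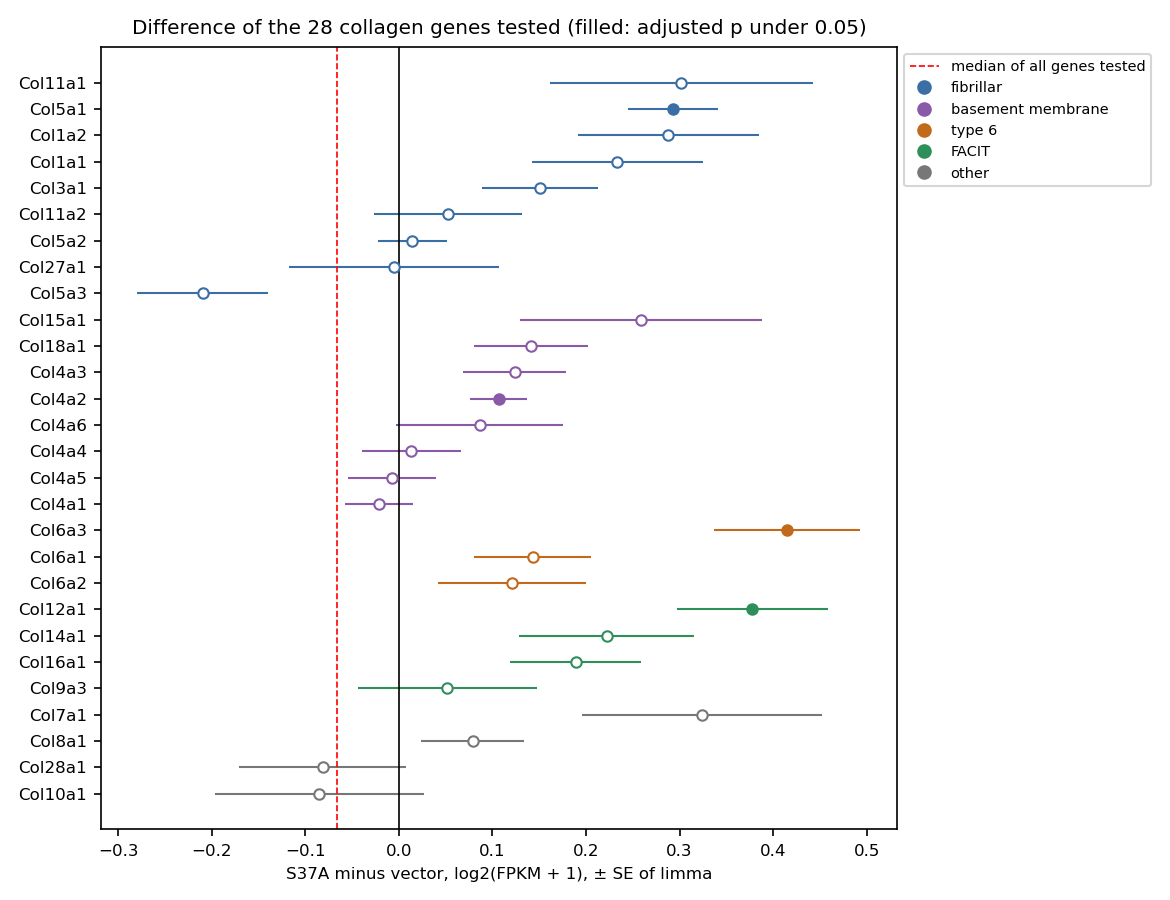
Difference of each of the 28 tested collagen genes, S37A minus vector on the log2(FPKM + 1) scale, with limma's SE as bars; filled points passed the adjusted threshold, colours mark the class and the dashed line is the median of all genes. The 4 filled points are Col5a1, Col4a2, Col6a3 and Col12a1, and Col5a3 at -0.21 is the lowest.

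Among the fibrillar genes, Col5a1 rose and the other 8 tested did not pass. Col5a1 encodes the α1 chain of type 5 collagen, which starts and limits the growth of type 1 fibrils, and lies on the plus strand at chr2:27886425-28039514, where its exons overlap 2810430I11Rik and Gm13372. It measured 231, 209 and 234 FPKM in vector and 269, 281 and 275 FPKM in S37A. The S37A libraries all lay above the vector libraries, with a log2 difference of 0.29 (SE 0.0481, adjusted p = 0.0100), and the adjusted p ranged from 0.0024 to 0.0429 over 16 alternative settings. Its partner Col5a2, the α2 chain of the same type, measured 1007, 940.1 and 968 FPKM in vector and 992, 979 and 973 FPKM in S37A. Those groups overlapped, and the difference was 0.01 (SE 0.0368, adjusted p = 0.784). Col5a3, the third chain of type 5, went the other way: 22.7, 23.5 and 25.9 FPKM in vector against 18.8, 22.2 and 20.96 in S37A. The groups did not overlap, but the difference of -0.21 (SE 0.0697) did not pass (adjusted p = 0.0616, range 0.0134 to 0.174 over the alternatives).

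The 2 genes of type 1 collagen, the bulk of tissue fibrils, were higher in each S37A library than in any vector library without passing the test. Col1a1 (chr11:94936224-94953042, plus strand) measured 1834, 1444 and 1769.8 FPKM in vector and 1847, 2063 and 1999.7 in S37A, a log2 difference of 0.23 (SE 0.0917, adjusted p = 0.0953). Col1a2 (chr6:4504814-4541544, plus strand) measured 825, 644 and 800.1 FPKM in vector and 851, 968 and 941 in S37A, a difference of 0.29 (SE 0.0968, adjusted p = 0.0638). In both genes vector replicate 2 was well below the other vector libraries, at 0.801 and 0.793 of their mean. Without that library the differences were 0.13 for Col1a1 and 0.18 for Col1a2. Col3a1, which forms mixed fibrils with type 1, measured 239.9, 203 and 218 FPKM against 235, 250.4 and 247 FPKM (0.15, SE 0.0615, adjusted p = 0.105).

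Type 11 and type 27 collagens are fibrillar types best known from cartilage. Col11a1 measured 45.2, 28.9 and 37.6 FPKM in vector and 42.9, 47.1 and 46.4 in S37A, so the groups overlapped through vector replicate 1. Its difference of 0.30 had an SE of 0.140 (adjusted p = 0.142). It was 0.14 without vector replicate 2 and 0.45 without vector replicate 1, where it was called (adjusted p = 0.0271). Col11a2 lay between 0.536 and 0.815 FPKM (difference 0.05, adjusted p = 0.641), and Col27a1 between 1.77 and 2.67 FPKM. The Col27a1 difference was -0.01 (adjusted p = 0.976) and turned positive under all 3 other scalings.

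**Figure D3:**
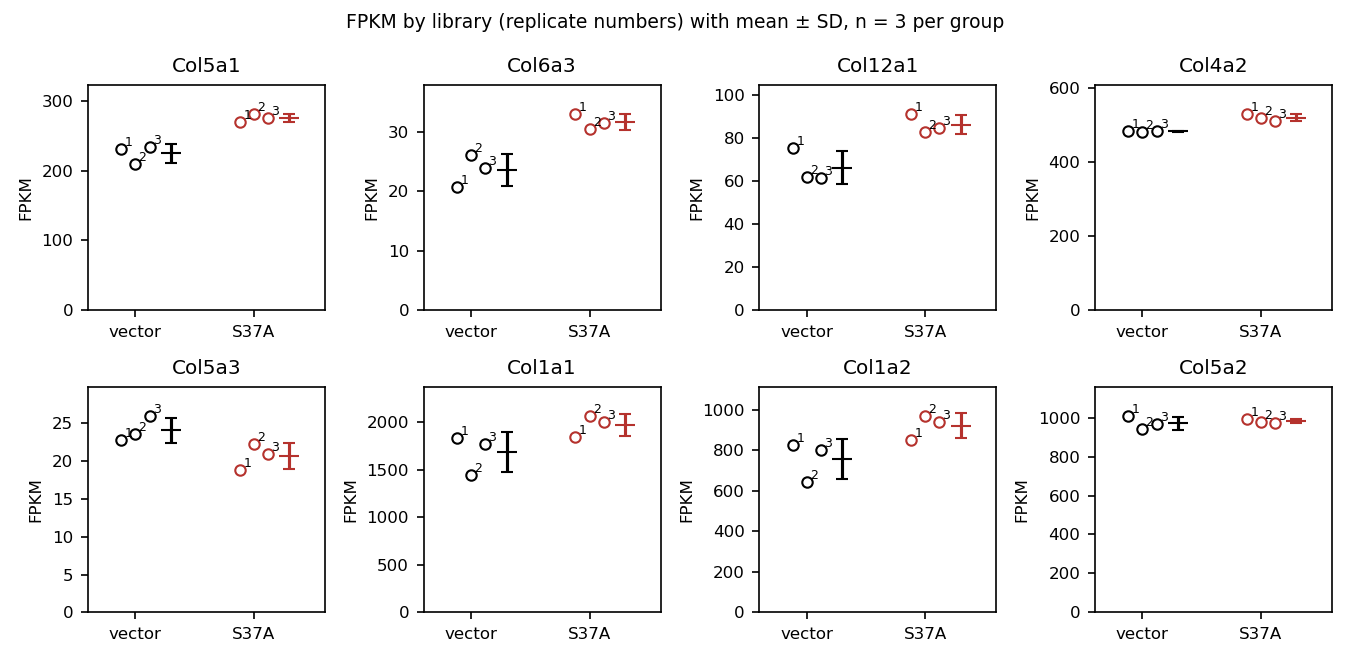
FPKM by library, on axes that start at 0, for the 4 genes that passed the test (upper row) and for Col5a3, Col1a1, Col1a2 and Col5a2 (lower row); circles are libraries with their replicate number, and bars are mean ± SD (n = 3 per group). The groups do not overlap except in Col5a2, and vector replicate 2 is the low point of Col1a1 and Col1a2.

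All 8 basement membrane genes were tested, and Col4a2 alone passed. Col4a1 and Col4a2 encode the α1 and α2 chains that together make the type 4 collagen of nearly all basement membranes. In GENCODE the genes lie head to head on chromosome 8 and overlap, with starts 21 bases apart: Col4a1 at chr8:11198423-11312826 on the minus strand and Col4a2 at chr8:11312805-11449287 on the plus strand. Col4a2 measured 483, 482 and 484 FPKM in vector and 531, 519.5 and 512 FPKM in S37A. The vector libraries had a CV of 0.205%, and the S37A libraries lay above them by 7.72% on average, a log2 difference of 0.11 (SE 0.0303, adjusted p = 0.0398). This call was the least stable of the 4: it was lost when any 1 library was left out (adjusted p = 0.0587 to 0.106), without the filter on low genes (0.0827) and without the intensity trend (0.0639). Col4a1 measured 807, 837 and 809 FPKM in vector and 833, 798 and 786 FPKM in S37A, with overlapping groups. Its difference of -0.02 (SE 0.0367, adjusted p = 0.685) became 0.05 under median-ratio scaling and 0.01 when the 100 most abundant genes were left out of the scaling.

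The other type 4 chains were far less abundant. Col4a5 measured 53.0 to 58.5 FPKM with a difference of -0.01 that became positive under each of the 3 other scalings. Col4a6 lay between 3.10 and 4.25 FPKM (difference 0.09, adjusted p = 0.489), Col4a4 between 4.05 and 4.53 FPKM (0.01) and Col4a3 between 2.97 and 3.60 FPKM (0.12, adjusted p = 0.129). Like Col4a1 and Col4a2, these genes are paired head to head, with the starts of Col4a3 and Col4a4 72 bases apart and those of Col4a5 and Col4a6 1309 bases apart. Col15a1 and Col18a1 encode basement-membrane-zone collagens that carry heparan or chondroitin sulfate chains. Col18a1 measured 10.3, 9.42 and 11.2 FPKM in vector and 11.6, 11.7 and 11.1 FPKM in S37A, with a difference of 0.14. Col15a1 measured 2.86, 4.65 and 4.12 FPKM against 4.75, 4.99 and 4.54 FPKM (0.26, adjusted p = 0.168). Both genes overlapped between the groups, and vector replicate 1 was the low library of Col15a1.

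In type 6, Col6a3 rose, with a difference of 0.41. The α3 chain it encodes is the longest of the 3 that make up type 6 collagen, and the gene lies on the minus strand at chr1:90765923-90843971. Col6a3 measured 20.8, 26.2 and 23.9 FPKM in vector and 33.1, 30.5 and 31.5 FPKM in S37A. The groups were apart (SE 0.0785, adjusted p = 0.0135), and the adjusted p stayed between 0.0023 and 0.0495 over the 16 alternatives, the highest without S37A replicate 3. Col6a1 measured 12.8, 15.01 and 14.1 FPKM against 16.4, 15.3 and 14.8 FPKM (0.14, SE 0.0623, adjusted p = 0.122). Col6a2 measured 9.73, 12.4 and 10.7 FPKM against 12.1, 12.2 and 11.5 FPKM (0.12, SE 0.0789, adjusted p = 0.276). Both overlapped between groups. Col6a4, Col6a5 and Col6a6, the later-described chains that can take the place of α3, had means of 0.103 FPKM or less.

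The 2 transcript models of Col6a3 in the files, of 10841 and 9020 bases, were both higher in S37A. The longer measured 2.68, 3.28 and 3.26 FPKM in vector and 5.49, 4.64 and 5.48 FPKM in S37A, a log2 difference of 0.61 (SE 0.0908, adjusted p = 0.0294 over 14550 models). It was 12.5% to 13.6% of the gene's FPKM in vector libraries and 15.2% to 17.4% in S37A libraries, without overlap. The shorter measured 18.1, 22.9 and 20.7 FPKM against 27.6, 25.9 and 26.1 FPKM and did not pass at the level of models (0.36, adjusted p = 0.0594). Of 30 collagen models tested, 2 were called higher, that of Col5a1 and the longer of Col6a3, and 0 lower, where limma called 2.62% and 5.29% of all models. The single models of Col12a1 (adjusted p = 0.0577) and Col4a2 (0.0519) missed the threshold there. Col4a5 also had 2 models above the minimum, the shorter of them with 62.9% to 68.4% of the gene's FPKM in overlapping groups.

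Among the FACIT genes Col12a1 rose. Its product binds the surface of type 1 fibrils and links them to the surrounding matrix; the gene is on the minus strand at chr9:79598991-79718831. Col12a1 measured 75.5, 62.1 and 61.6 FPKM in vector and 91.3, 82.8 and 84.7 FPKM in S37A. All S37A libraries were above all vector libraries (0.38, SE 0.0807, adjusted p = 0.0183). The call was lost without vector replicate 2 (0.0539), vector replicate 3 (0.0533) or S37A replicate 3 (0.0569). Col16a1, a related chain, measured 23.5, 21.1 and 24.5 FPKM against 24.2, 27.2 and 27.8 FPKM with overlap (0.19, SE 0.0701, adjusted p = 0.0830). Col14a1, another collagen of the fibril surface, measured 1.204, 0.831 and 0.752 FPKM against 1.37, 1.19 and 1.16 FPKM (0.22, adjusted p = 0.112). Col9a3 at a mean of 0.518 FPKM was the last gene inside the tested minimum, and Col20a1 at 0.480 FPKM the first outside it.

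No gene of the remaining class passed. Col8a1, a chain of the short network-forming type 8 collagen of vessels and smooth muscle, measured 129, 112 and 115 FPKM in vector and 127, 124 and 124 FPKM in S37A (0.08, SE 0.0546, adjusted p = 0.304). Col7a1, which forms the anchoring fibrils under epithelia, measured 8.85, 6.22 and 8.68 FPKM against 8.96, 11.2 and 10.1 FPKM. The groups of Col7a1 were apart by a narrow margin, and the difference of 0.32 had an SE of 0.128 (adjusted p = 0.0972). Col10a1, the collagen of hypertrophic cartilage, lay between 1.95 and 2.82 FPKM (-0.09) and Col28a1 between 0.625 and 1.07 FPKM (-0.08), both with overlapping groups. Col10a1 changed sign with sample weights and Col28a1 without vector replicate 1.

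The pattern over libraries was not the same for each gene. Vector replicate 2 was the lowest vector library for 17 of the 28 tested collagens (60.7%), and for 30.3% of all genes. Its level relative to the mean of the other vector libraries was 0.698 for Col11a1, 0.710 for Col7a1, 0.801 for Col1a1 and 0.887 for Col3a1. The type 6 genes and Col15a1 went the other way: the ratio was 1.12 for Col6a1, 1.22 for Col6a2, 1.17 for Col6a3 and 1.33 for Col15a1. Vector replicate 1 was the lowest vector library for those 4 genes. Among S37A libraries, replicate 1 had the lowest level of Col1a1, Col1a2, Col3a1, Col5a1, Col5a3 and Col11a1 and the highest of Col6a1, Col6a3 and Col12a1.

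**Figure D4:**
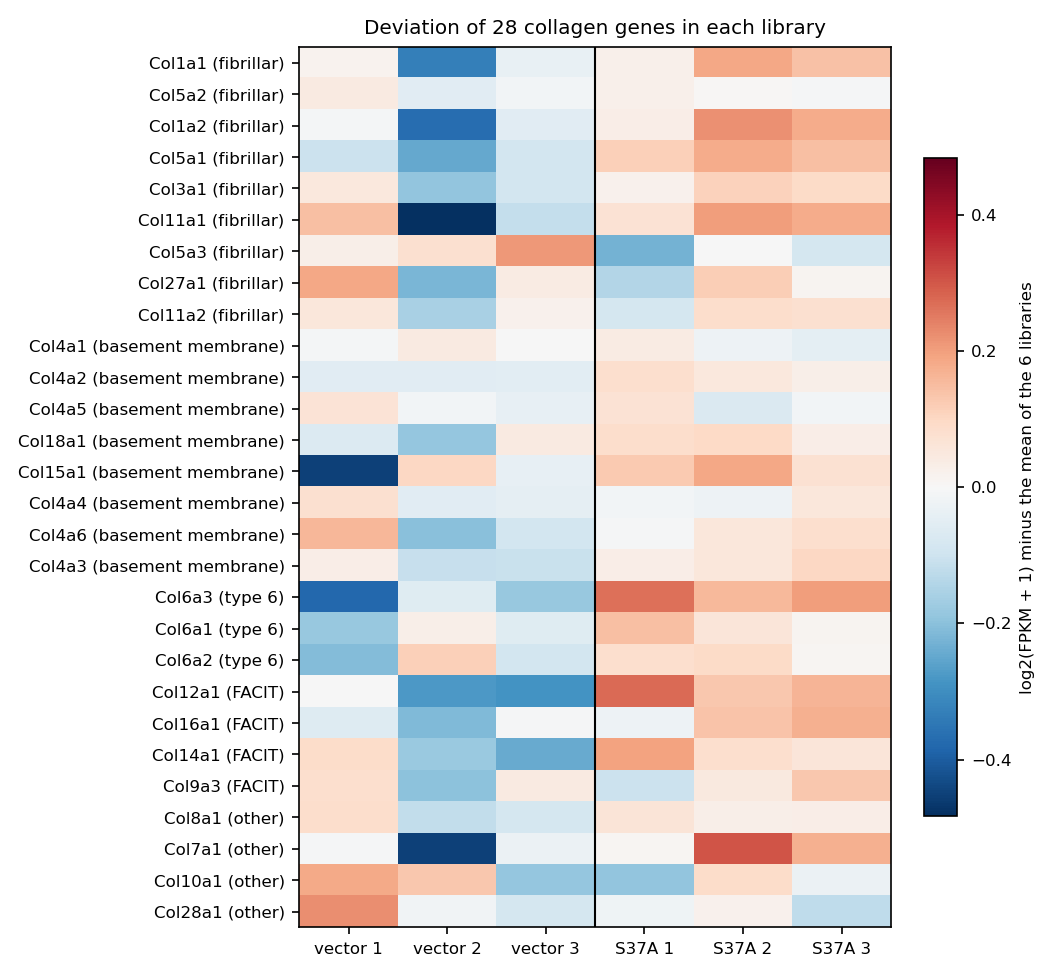
Colour gives log2(FPKM + 1) of each tested collagen in each library minus the gene's mean over the 6 libraries, red above and blue below, with genes by class and falling level. Vector replicate 2 is the bluest column for type 1, type 11 and Col7a1, vector replicate 1 for type 6 and Col15a1, and Col5a3 is red in vector and mostly blue in S37A.

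Chains that assemble into one molecule, or lie in one fibril, were compared as ratios of FPKM within each library. Of 9 ratios, 6 did not overlap between groups. The share for ratios of other gene pairs was not computed, and for single genes it was 11.3% higher and 36.5% lower. Ratios that hold Col5a1, Col4a2 or Col6a3 use the same values as the calls of those genes above. Each of the 6 had an exact two-sided permutation p of 0.1, the smallest that 3 against 3 libraries can give. After Benjamini-Hochberg adjustment over the 9 it was 0.15, so none could pass. Col1a1 to Col1a2 was 2.22, 2.24 and 2.21 in vector and 2.17, 2.13 and 2.13 in S37A. This ratio hardly varied within a group although both genes did. The type 1 molecule itself holds 2 α1 chains and 1 α2 chain, but that is a count of protein chains, which RNA levels do not measure. Col5a1 to Col5a2 was 0.230, 0.222 and 0.241 in vector and 0.272, 0.287 and 0.283 in S37A. Col5a3 to Col5a1 was 0.0983, 0.112 and 0.111 in vector and 0.0699, 0.0790 and 0.0762 in S37A. Within type 5, Col5a1 in these S37A libraries was thus higher relative to both other chains, without a test that could pass.

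In type 4, Col4a1 to Col4a2 was 1.67, 1.73 and 1.67 in vector and lower, 1.57, 1.54 and 1.54, in S37A. Col4a3 to Col4a4, a pair added after the values were seen, was 0.746, 0.734 and 0.729 in vector and higher, 0.806, 0.830 and 0.809, in S37A. Col6a3 to Col6a1 was 1.62, 1.74 and 1.70 in vector and 2.02, 1.99 and 2.13 in S37A. The groups overlapped for Col3a1 to Col1a1 (exact permutation p = 0.3), Col4a5 to Col4a6 (0.6) and Col6a1 to Col6a2 (0.7). Col8a1 to Col8a2 was not computed because Col8a2 was under 0.5 FPKM.

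**Figure D5:**
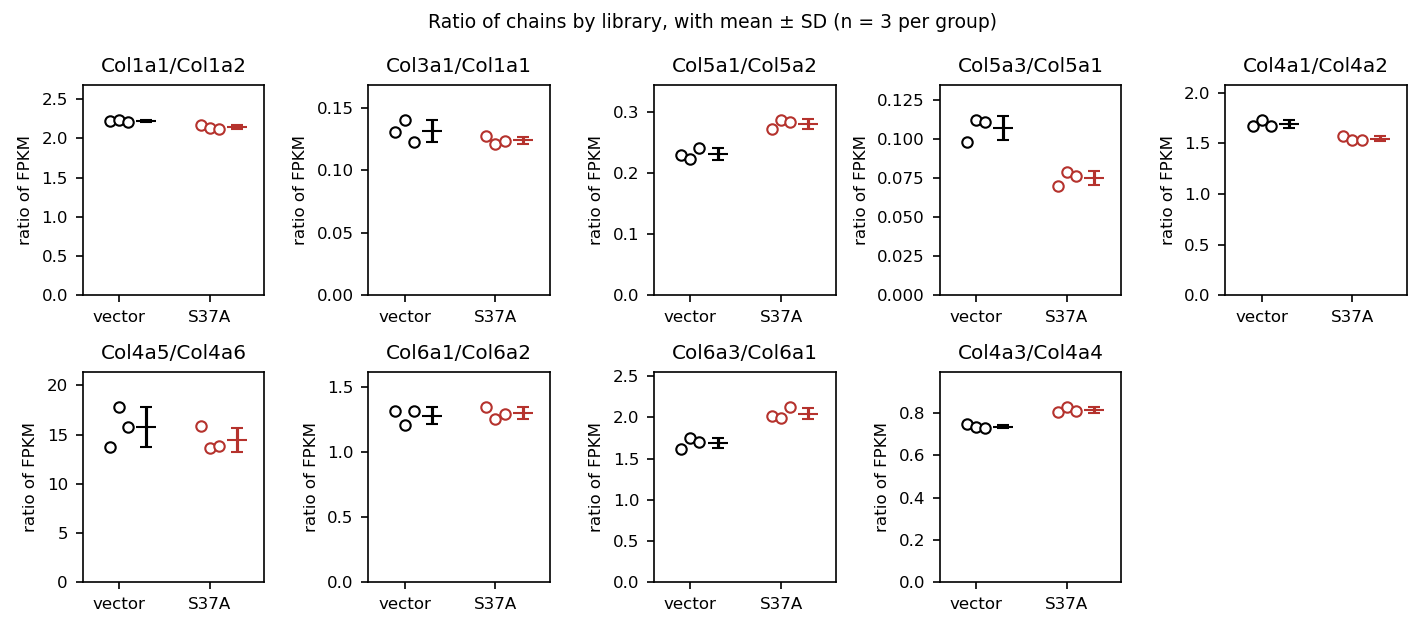
Ratio of the FPKM of chain pairs in each library (circles) with mean ± SD (n = 3 per group), on axes that start at 0. The groups are apart in 6 of the 9 panels, with Col5a1/Col5a2, Col6a3/Col6a1 and Col4a3/Col4a4 higher and Col1a1/Col1a2, Col5a3/Col5a1 and Col4a1/Col4a2 lower in S37A.

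All collagens together summed to 5870.2, 5155 and 5693 FPKM in vector and 6027, 6324 and 6197 FPKM in S37A, a ratio of means of 1.11. This was 1.28% to 1.48% of the summed FPKM of all genes in vector and 1.55% to 1.598% in S37A. Weighted by length, which follows fragments rather than molecules, the shares were 3.36% to 3.82% and 3.92% to 4.06%. The fibrillar sum was 3495 to 4209 FPKM in vector and 4258 to 4615 FPKM in S37A, the type 6 sum 43.4 to 53.8 and 57.9 to 61.6 FPKM, and the FACIT sum 84.8 to 101 and 112 to 118 FPKM. Those 3 class sums did not overlap between the groups. The share for sums of other genes was not computed, and for single genes it was 11.3% higher and 36.5% lower. Much of each sum comes from 1 or 2 genes described above. In S37A, Col6a3 had a mean of 31.7 of the 59.2 FPKM of type 6, and Col12a1 86.3 of the 115 FPKM of FACIT. Col1a1 and Col1a2, which did not pass, had 1970 and 920 of the 4460 fibrillar FPKM. The basement membrane sum, 1373 to 1399 FPKM in vector and 1381 to 1450.0 FPKM in S37A, did overlap, and so did that of the other genes.

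The 16 untested genes were Col2a1, Col24a1, Col6a4, Col6a5, Col6a6, Col9a1, Col9a2, Col19a1, Col20a1, Col22a1, Col8a2, Col13a1, Col17a1, Col23a1, Col25a1 and Col26a1. Their means lay between 0.00543 and 0.480 FPKM, and all but Col20a1 had a mean of 0.197 FPKM or less. In 4 of the 16, Col19a1, Col22a1, Col25a1 and Col6a6, every S37A library lay below every vector library. Of all 7584 genes under the tested minimum with a value above 0 in some library, 13.1% did so, a smaller share. Col19a1 measured 0.0435, 0.0559 and 0.0438 FPKM in vector and 0.00785, 0.0113 and 0.0189 FPKM in S37A, which is 3.84 to 29.7 fragments per library by the interval widths. It was the single collagen called lower when the filter was dropped (adjusted p = 0.0384). Col6a6 was listed at 0 in all 3 S37A libraries and at 0.0150 FPKM or less in vector, 3.92 fragments or fewer.

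Collagen chains are modified and folded in the endoplasmic reticulum by hydroxylases, chaperones and export factors. Of 22 such genes tested (of 23 listed), 8 rose and 0 fell, with a median difference of 0.10. Over all genes tested, 6.06% were called higher and 19.9% lower. At an unadjusted p under 0.05, 12 of the 22 were higher and 0 lower. P4ha1, P4ha2 and P4ha3 encode the prolyl 4-hydroxylase subunits that stabilise the helix. P4ha2 measured 55.1, 51.0 and 58.4 FPKM in vector and 62.5, 69.2 and 66.5 FPKM in S37A (0.27, adjusted p = 0.0203), and P4ha1 (0.15) and P4ha3 (0.24) also rose. P3h1, a prolyl 3-hydroxylase, rose by 0.26 (0.13 and not called, adjusted p = 0.369, with its leading transcript model, and not called without the filter, adjusted p = 0.0585) and Serpinh1, the collagen chaperone HSP47, by 0.19, from 919 ± 44.9 to 1046 ± 39.2 FPKM (SD, n = 3). The other calls were Plod1, Fkbp14 and Sec23a. Plod2, which makes the hydroxylysine of stable cross-links, was at 85.3 ± 9.05 and 89.8 ± 2.21 FPKM (0.08, adjusted p = 0.424). The count varied with the setting: limma called 2 of these genes higher without the filter on low genes, 4 with the leading transcript model and 5 without the intensity trend. It called 0 of these genes without S37A replicate 2 or without S37A replicate 3, 1 without vector replicate 2, and 3 without vector replicate 3 or S37A replicate 1.

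Outside the cell, proteases trim the propeptides and oxidases cross-link the fibrils. Of 14 such genes tested, 3 rose and 1 fell (median 0.12), where 6.06% of all genes were called higher and 19.9% lower. Pxdn, the peroxidase that makes sulfilimine cross-links in type 4 collagen, measured 37.4, 37.1 and 40.1 FPKM in vector and 46.4, 46.8 and 47.2 FPKM in S37A (0.29, adjusted p = 0.0062). Tgm2, a transglutaminase, rose by 0.28 (adjusted p = 0.0093), and Loxl4, a lysyl oxidase-like enzyme, rose as well. Tll1, a tolloid-like propeptidase, fell by 0.39 (adjusted p = 0.0101), from 24.8 ± 1.53 to 18.6 ± 1.40 FPKM. Bmp1, the major C-propeptidase, was at 193 ± 10.3 and 193 ± 3.04 FPKM, with a difference of 0.00 whose sign varied. Lox, the lysyl oxidase itself, measured 1157, 965 and 1075 FPKM in vector and 1193, 1233 and 1260.2 FPKM in S37A; the groups were apart but the difference of 0.21 did not pass (adjusted p = 0.0530), and it was -0.04 for its leading transcript model alone.

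Of 10 genes for proteins that bind or organise fibrils, limma called 0, with 3 higher and 0 lower at an unadjusted p under 0.05. Those 3 were Bgn (biglycan, 0.09, adjusted p = 0.0883, below 0 with quantile normalization), Fmod (fibromodulin, 0.17, adjusted p = 0.0771) and Sparc (0.13, adjusted p = 0.0932). Without vector replicate 1, 2 of the 10 were called higher. Of 9 genes for collagen receptors and uptake, 1 rose and 1 fell, where 6.06% of all genes were called higher and 19.9% lower. Without vector replicate 1, 3 of the 9 were called higher. Itgb1, the β1 integrin subunit shared by the collagen-binding integrins, measured 782, 787 and 780.0 FPKM in vector and 968, 879.5 and 888 FPKM in S37A (0.22, adjusted p = 0.0155). Itga2, the α2 partner, fell by 0.48 (adjusted p = 0.0035), from 5.28 ± 0.316 to 3.49 ± 0.1001 FPKM. Itga1, the α1 partner, measured 7.49 ± 0.646 and 8.72 ± 0.629 FPKM (0.20, adjusted p = 0.0760), and Ddr2, a receptor kinase for fibrillar collagen, 36.8 ± 2.72 and 35.3 ± 1.89 FPKM (-0.06, adjusted p = 0.494, above 0 with median-ratio scaling).

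Of 12 genes for collagen breakdown and its inhibitors, 2 rose and 3 fell, where 6.06% of all genes were called higher and 19.9% lower. The 2 that rose are protease inhibitors: Timp3 measured 162, 159.9 and 166 FPKM in vector and 345, 316 and 314 FPKM in S37A (0.99, adjusted p = 7.58e-05), and Timp2 was the other. The 3 that fell are matrix metalloproteinases. Mmp13, which cleaves fibrillar collagen, measured 19.996, 16.1 and 14.6 FPKM in vector and 7.83, 9.84 and 8.44 FPKM in S37A (-0.88, adjusted p = 0.0063). Mmp9, which degrades type 4 collagen and denatured chains, fell from 11.3 ± 1.10 to 5.88 ± 0.483 FPKM (-0.84, adjusted p = 0.0023), and Mmp3 also fell. Mmp14, the membrane-bound collagenase, measured 252 ± 22.8 and 286 ± 31.7 FPKM (0.18, adjusted p = 0.180). Mmp2, another metalloproteinase, was not called and also went up, at 56.9 ± 2.68 and 63.8 ± 4.91 FPKM (0.16, adjusted p = 0.0907). At an unadjusted p under 0.05, 4 of the 12 genes were higher and 4 lower.

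The promoters of 35 of the 44 collagen genes were found among RefSeq promoters (GRCm38.p6) and searched on both strands over 250 bases before the start, taking for the 3 genes with more than 1 entry the one nearest a start in the files (the first listed where these tied). Letters read by TCF/LEF factors, the DNA-binding partners of β-catenin (CTTTG followed by 2 letters that are each A or T), occurred in 6 of the 35 (17.1%) and in 14.8% of all 32851 promoters; with every entry counted it was 7 genes. The sequence CCAAT occurred in 12 (34.3%, against 33.9% of all; 13 with every entry) and TATAAA in 5 (14.3%, against 12.4%). A match is a run of letters and not a measured binding site.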

How the data were processed

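RNA was measured in 3 vector and 3 S37A libraries, grouped by sample title. Per the labels' protocols, cDNA came from the SMART-Seq v4 kit, which keeps no strand information, so reads of overlapping genes on opposite strands, such as the ends of Col4a1 and Col4a2, cannot be told apart. The build was mm10 and the tools were bcl2fastq 1.8.3, TopHat and Cufflinks, per the submitters' processing notes. The deposited files give, per the file headers, the FPKM of 34535 transcript models with a confidence interval, a coverage signal and a status; the coverage was a constant multiple of FPKM in each library and was used for no result. The files hold no read counts; fragment numbers were inferred from the interval widths and cover counting error only.

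Models were joined by identifier and their FPKM summed by symbol. After 5 symbols with a status other than OK were left out (no collagen), the 12022 genes whose mean reached 0.5 FPKM were tested with limma 3.58.1 in R 4.3.3 on log2(FPKM + 1), with an intensity trend and no block, and p-values were adjusted over all of them (Benjamini-Hochberg, threshold 0.05). Differences on this scale understate changes of low genes. The script was tested on simulated data. Ratios of chains were compared by an exact two-sided permutation test. Positions of all 44 genes and exons are from GENCODE M21 (mm10), in 1-based coordinates.

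The members and the 5 lists of pathway genes and 11 of markers were chosen with earlier results of these data known. Levels are given for every tested collagen, and values by library for those called and the leading ones of each class. For pathway lists the 3 genes with the smallest p are given, plus Serpinh1, Lox, P4ha1, Plod2, Bmp1, Mmp13, Mmp14 and Ddr2. Other called pathway genes, collagens given beside them and Mmp2 were named after their values were seen. The alternatives changed the pseudocount (0.1), the filter (none, or 5 FPKM), the scaling (3 ways), the trend, sample weights, the block, the model summary and the libraries (each left out in turn), 16 settings in all. Some marker genes are not reported here by name.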

Additional observations from a re-analysis of the deposited data

How the results depend on the processing

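Of the 4 collagen calls, those of Col5a1 and Col6a3 kept their direction and side of the threshold in all 16 alternatives, Col12a1 in 13 and Col4a2 in 7. The number of collagens called higher was 7 with median-ratio scaling and 11 with sample weights, and 2 to 9 with a library left out; called lower were 1 without a filter (Col19a1) and 1 with sample weights (Col5a3). Over all genes, 1265 were higher and 945 lower with median-ratio scaling, 1094 and 957 with quantile normalization, 1238 and 3655 with sample weights, and 298 to 747 and 606 to 2401 with a library left out; 1513 were lower when the 100 most abundant genes were left out of the scaling and 1491 with the leading transcript model. Pathway genes called higher, 14 in all, were 8 without a filter, 25 with median-ratio scaling, 22 with the scaling that leaves out abundant genes, 23 with sample weights, 9 with the leading transcript model and 6 to 19 with a library left out. Collagen transcript models called higher were 4 with a mean of at least 5 FPKM and 4 with median-ratio scaling. Where a setting or a left-out library moved a count, the cause was not tested.

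Differences near 0 changed sign. With median-ratio scaling, quantile normalization and the scaling without abundant genes, Col27a1 was 0.0460, 0.0722 and 0.0186, and Col4a5 0.0667, 0.0260 and 0.0276. Col4a1 was 0.0541 with the first and 0.0142 with the last, Ddr2 0.0151 with the first and Bgn -0.0164 with quantile normalization. With sample weights Col10a1 was 0.0708, Col4a5 0.0048 and Bmp1 -0.0060; with the leading transcript model Bmp1 was -0.0722 and Lox -0.0406. With a library left out, the ranges were -0.0120 to 0.108 for Col11a2, -0.117 to 0.0876 for Col27a1, -0.143 to 0.00996 for Col28a1, -0.0117 to 0.0555 for Col4a4, -0.0443 to 0.0256 for Col4a5, -0.00908 to 0.0406 for Col5a2, -0.0346 to 0.116 for Col9a3, -0.0390 to 0.0358 for Bmp1, -0.0971 to 0.000308 for Ddr2, and -0.0188 to 0.0395 for the difference in the ratio of Col6a1 to Col6a2.

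Same-numbered libraries did not deviate together (correlations of -0.12, 0.02 and 0.10 across genes, not each above 0.1), so the numbers were not taken as pairs. With the replicate block, 442 genes were higher and 1193 lower, 3 collagens were higher (Col5a1, Col6a3 and Col12a1), 8 pathway genes were higher (2 of them among the genes of the endoplasmic reticulum, without P3h1, adjusted p = 0.0688), and 0 collagen models, those of Col5a1 and the longer of Col6a3 being lost (adjusted p = 0.114 and 0.113). Depth limits the genes under 0.5 FPKM, where a library holds at most about 118 fragments of a collagen gene.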
